A study of Mus musculus with 16 samples.

Results

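The respiratory chain subunits that are encoded in the nucleus were followed across the libraries of colonic epithelial cells from mice labelled as lacking the mTORC2 component Rictor in this epithelium and from their controls. The genes were chosen by symbol: protein-coding genes that begin with Ndufa, Ndufb, Ndufc, Ndufs, Ndufv, Uqcr, Cox4 to Cox8 or Atp5, together with Sdha, Sdhb, Sdhc, Sdhd and Cyc1, and without the assembly factors that begin with Ndufaf. The rule found 89 of 56268 genes, of which 37 belong to complex I, 4 to complex II, 9 to complex III, 21 to complex IV and 18 to complex V. Ndufa4 and its paralog Ndufa4l2, which are named for complex I, were counted with complex IV, where the protein sits.

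The respiratory chain lies in the inner mitochondrial membrane. Complex I takes electrons from NADH and complex II from succinate, ubiquinone carries them to complex III, and cytochrome c carries them on to complex IV, which reduces oxygen to water. Complexes I, III and IV move protons across the membrane, and complex V, the ATP synthase, uses their return to make ATP. A few hydrophobic subunits are made from mitochondrial DNA, while all others are nuclear genes whose proteins are imported, so the complexes need products of both genomes. Absorptive cells of the colon draw much of their energy from the oxidation of butyrate in mitochondria.

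RNA was sequenced from colonic epithelial cells in 4 groups of 4 libraries. The groups were cKO_DSS (Rictor Flox with Villin-Cre, given 3% dextran sulfate sodium in the drinking water), WT_DSS (Villin-Cre alone, given 3% DSS), cKO (Rictor Flox with Villin-Cre, on water) and WT (Villin-Cre alone, on water). All groups thus carried the Villin-Cre transgene, whose promoter drives Cre recombinase in the intestinal epithelium, and DSS is a detergent-like polysaccharide that injures this epithelium. The age of the mice and the days of DSS are not given in the labels. Whether each library is from a different mouse is not in the labels, and the p-values reflect the variation among these libraries alone, and in bulk RNA fewer cells of a type and less RNA per cell cannot be told apart.

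Recovered reads came to 13911823 to 16414914 per library. Rictor averaged 2.51 ± 0.46 FPKM in cKO_DSS and 3.63 ± 0.57 FPKM in WT_DSS (SD, n = 4 each; exact two-sided permutation p = 0.0571), and 2.47 ± 0.24 FPKM in cKO and 2.80 ± 0.44 FPKM in WT (exact p = 0.257), where the smallest p that 4 against 4 libraries allow is 0.0286. The labels do not say which exons are deleted. FPKM, the deposited unit, divides the fragments of a gene by its length and by the depth of the library. All 9 epithelial markers were present, at a sum of 10142 to 12014 FPKM in cKO_DSS, 8017 to 9696 in WT_DSS, 7868 to 12041 in cKO and 6813 to 9463 in WT. The 8 immune markers summed to 9.18 to 13.7 FPKM in cKO_DSS, 8.73 to 14.0 in WT_DSS, 4.79 to 7.47 in cKO and 4.33 to 7.90 in WT, and the 6 fibroblast markers to 5.51 to 7.26 in cKO_DSS, 8.32 to 9.91 in WT_DSS, 3.19 to 4.04 in cKO and 2.14 to 3.65 in WT. Sex-linked genes also followed the groups. The 4 Y-linked genes Ddx3y, Eif2s3y, Kdm5d and Uty summed to 27.7 to 45.5 FPKM in cKO_DSS and 29.0 to 38.7 in WT_DSS, and to 0 to 18.2 in cKO and 0 to 12.5 in WT, where 2 libraries of cKO and 1 of WT were at 0. The female-expressed gene Xist had 0 to 0.0141 FPKM in cKO_DSS and 0.00402 to 20.5 in WT_DSS, and 44.7 to 104.9 in cKO and 33.2 to 64.9 in WT. Levels of sex-linked genes thus went with DSS, so sex and DSS cannot be told apart in the comparisons of DSS with water.

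Of the 89 genes, 81 reached 1 FPKM in at least 4 libraries and were tested. The other 8 are isoforms of other tissues (Cox4i2, Cox6a2, Cox7b2, Cox8b, Cox8c and Ndufa4l2), the complex I core subunit Ndufs3, and an additional Atp5o row. The nuclear subunits took 0.975 to 1.2% of the reads in cKO_DSS, 1.28 to 1.5% in WT_DSS, 1.19 to 1.28% in cKO and 1.31 to 1.66% in WT. Their FPKM summed to 6426 ± 425 in cKO_DSS and 7955 ± 346 in WT_DSS, and to 7266 ± 498 in cKO and 8916 ± 1339 in WT (SD, n = 4 each). The sums of cKO_DSS and WT_DSS did not overlap, at 5907 to 6932 against 7497 to 8314, while those of cKO (6794 to 7799) and WT (7423 to 10665) did.

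By complex, the sums were lower in cKO_DSS than in every WT_DSS library for complexes I, III, IV and V. Complex III summed to 1079 ± 63.0 FPKM in cKO_DSS and 1379 ± 34.3 in WT_DSS, and complex V to 1372 ± 133 in cKO_DSS and 1808 ± 111 in WT_DSS (SD, n = 4 each). For complex II, succinate dehydrogenase, the sums were 471 ± 16.9 FPKM in cKO_DSS, 521 ± 60.1 in WT_DSS, 439 ± 20.7 in cKO and 498 ± 44.2 in WT, and the ranges of cKO_DSS and WT_DSS overlapped. Complex IV, cytochrome c oxidase, had the widest spread, at 2070 ± 197 FPKM in cKO_DSS, 2443 ± 128 in WT_DSS, 2198 ± 137 in cKO and 3171 ± 665 in WT.

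**Figure D1:**
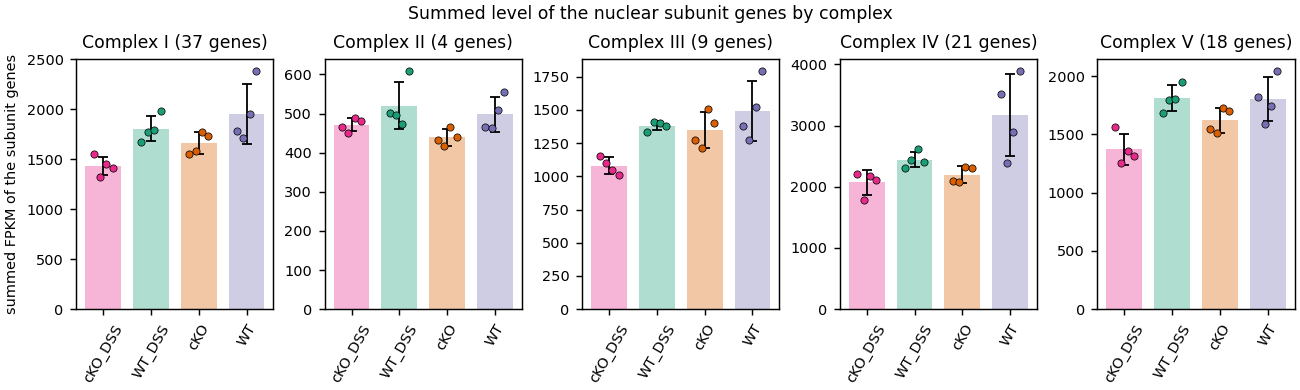
Summed FPKM of the nuclear subunit genes of each complex; points are the 4 libraries of a group, bars the means and error bars the SD. The cKO_DSS libraries lie below all WT_DSS libraries for complexes I, III, IV and V, and the WT libraries spread most for complex IV (SD 665 FPKM).

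Among the tested genes, mean levels over the 16 libraries ran from 1.26 FPKM for Cox6b2 to 599 FPKM for Cox6a1. In complex I the lowest tested was Ndufb2 (7.56 FPKM). Iron-sulfur and NADH-binding core subunits lay higher, at 72.2 FPKM for Ndufs7, 71.5 for Ndufv2, 68.3 for Ndufs8, 55.7 for Ndufv1 and 21.8 for Ndufs1, whose gene length of 8086 bases is the longest of the set. In complex II the membrane anchors were the lowest and the highest, Sdhc at 66.1 FPKM and Sdhd at 210.2, with the flavoprotein Sdha at 92.7 and the iron-sulfur subunit Sdhb at 113.

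In complex III, the small subunit Uqcr10 was highest at 351 FPKM, ahead of the Rieske iron-sulfur protein Uqcrfs1 (256) and cytochrome c1, Cyc1 (180.3). Of the paired core subunits, Uqcrc2 was listed at 135 FPKM and Uqcrc1 2.82. In complex V the catalytic beta subunit Atp5b had 391 FPKM, while its partner in the catalytic ring, the alpha subunit Atp5a1, was listed at 10.02. How the counting treated reads that map to several places is not stated, and whether it bears on the low values of Uqcrc1 and Atp5a1 was not tested. The 3 genes that encode the same c-ring protein had 169.8 FPKM (Atp5g3), 66.5 (Atp5g2) and 33.1 (Atp5g1).

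Complex IV has isoforms that are known from particular tissues. The widely expressed forms Cox4i1, Cox6a1, Cox6b1, Cox7a2, Cox7b and Cox8a had 316, 599, 236, 211, 188 and 309 FPKM. Cox4i2, a form known from lung and induced by low oxygen, reached at most 0.653 FPKM in any library. The heart and skeletal muscle forms Cox6a2 and Cox8b reached at most 0.317 and 0.372 FPKM, and the testis forms Cox7b2 and Cox8c were listed at 0 in all 16 libraries. Cox7a1, another muscle form, was higher at 13.4 FPKM (4.600 to 22.8), and the testis form Cox6b2 averaged 1.26. Cox7a2l, which joins complexes III and IV into larger assemblies, had 97.4 FPKM, Ndufa4 47.8, and Ndufa4l2, a form induced by low oxygen, at most 0.173 in any library.

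**Figure D2:**
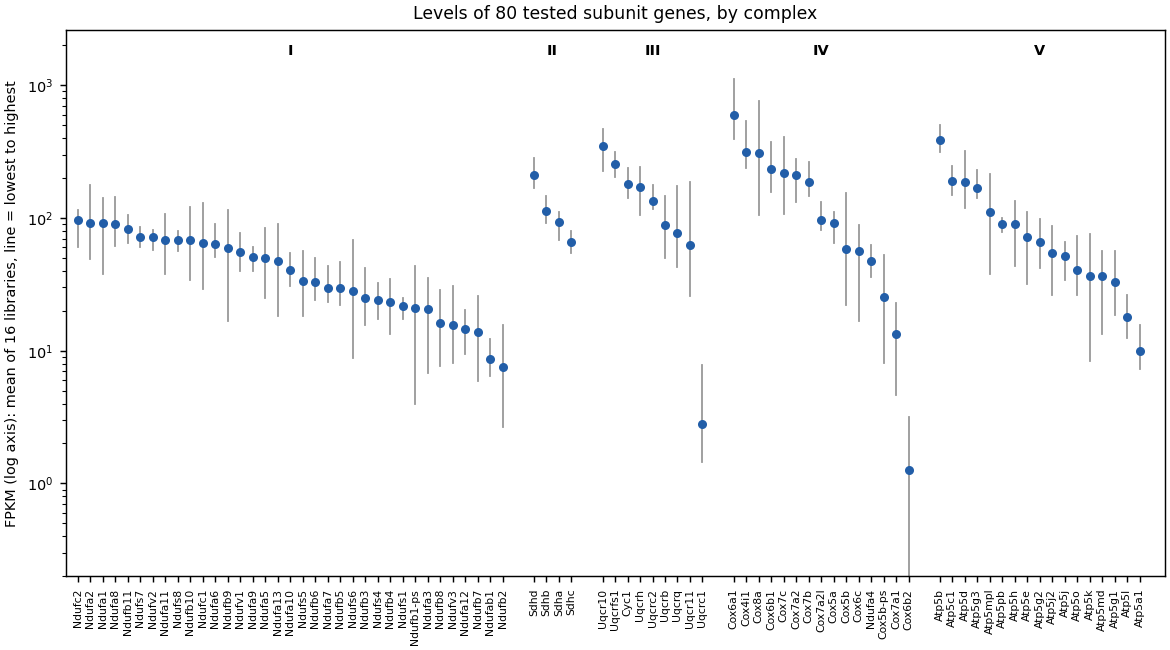
Mean FPKM over the 16 libraries of 80 of the 81 tested genes (log axis), sorted within each complex; lines run from the lowest to the highest library, and a line that reaches the lower edge includes a library at or near 0. Uqcrc1 (2.82 FPKM) and Atp5a1 (10.02 FPKM) are listed far below Uqcrc2 and Atp5b; whether the counting of reads that map to several places bears on this was not tested.

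Other genes carry the name or the protein family annotation of a member, and their sequence identity to it was not measured. Ndufs3 was above 0 in 1 library, at 0.0316 FPKM, while the processed pseudogene Gm12251, which carries the same protein family annotation, had 27.5 to 46.1 FPKM. Atp5l, subunit g of the ATP synthase, averaged 18.0 FPKM, and the pseudogene Gm10221 with its family annotation averaged 142. In the same way Gm10039 had 115 FPKM beside the c-ring genes, Gm10250 had 69.8 beside Atp5h (89.6), Ndufa12-ps 24.8 beside Ndufa12 (14.6), and Ndufab1-ps 21.4 beside Ndufab1 (8.61), the mitochondrial acyl carrier protein. In all there were 45 such genes, and 19 of them averaged at least 1 FPKM. How reads were divided between members and copies was not tested. The additional Atp5o row lies wholly within exons of Donson on the same strand and was listed at 0.

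The sequences before the start of 5 genes are shown because these had, in each comparison, the smallest p among members with an entry in the RefSeq promoter table (GRCm38.p6) of which at least 200 of the 250 upstream bases lie outside annotated exons of the gene. Each is written 5′ to 3′ on the gene's strand, and capitals mark a match to the motif of NRF1 (GCGCA, any 1 base, GCGC), of GABPA and other ETS factors (CCGGAAG) or of YY1 (AAGATGG), on either strand; these factors are known regulators of nuclear genes for mitochondria.
Ndufa1, chrX:37191239-37191488, minus strand: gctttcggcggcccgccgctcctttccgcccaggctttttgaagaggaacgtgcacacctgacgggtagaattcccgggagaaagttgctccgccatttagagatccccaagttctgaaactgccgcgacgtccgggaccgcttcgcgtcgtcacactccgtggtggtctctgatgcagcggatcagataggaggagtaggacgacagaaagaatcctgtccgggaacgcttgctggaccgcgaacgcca
Cox8a, chr19:7217617-7217866, minus strand: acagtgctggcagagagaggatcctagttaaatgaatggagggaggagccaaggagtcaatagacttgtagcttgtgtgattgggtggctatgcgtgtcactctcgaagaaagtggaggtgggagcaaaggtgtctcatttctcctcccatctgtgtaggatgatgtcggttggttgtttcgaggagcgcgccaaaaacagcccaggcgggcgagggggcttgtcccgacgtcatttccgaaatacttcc
Uqcr11, chr10:80406831-80407071, minus strand: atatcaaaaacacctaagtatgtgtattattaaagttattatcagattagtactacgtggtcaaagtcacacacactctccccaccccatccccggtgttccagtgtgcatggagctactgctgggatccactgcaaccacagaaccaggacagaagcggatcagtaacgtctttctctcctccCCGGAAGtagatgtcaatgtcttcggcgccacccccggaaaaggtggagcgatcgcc
Atp5k, chr5:108434449-108434649, minus strand: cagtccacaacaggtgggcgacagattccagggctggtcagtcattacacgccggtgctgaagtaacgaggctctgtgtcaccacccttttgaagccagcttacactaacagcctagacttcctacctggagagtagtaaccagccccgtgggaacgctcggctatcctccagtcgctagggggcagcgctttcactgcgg
Ndufb6, chr4:40279422-40279671, minus strand: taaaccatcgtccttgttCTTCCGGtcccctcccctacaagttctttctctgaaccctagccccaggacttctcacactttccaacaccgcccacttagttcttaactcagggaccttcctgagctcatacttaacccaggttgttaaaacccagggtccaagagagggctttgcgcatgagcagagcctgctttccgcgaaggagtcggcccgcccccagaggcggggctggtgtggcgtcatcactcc

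The upstream bases of Uqcr11 and Ndufb6 held 1 ETS motif each, and those printed for Ndufa1, Cox8a and Atp5k held none of the 3 motifs. The full window of 250 bases of Atp5k held 1 NRF1 motif, which lies outside the 201 bases printed. The table named 69 members, with 74 starts. Over 250 bases upstream of each start, the NRF1 motif was found at 18.9% of the members' starts, against 3.74% of all 32851 starts in the table. The ETS motif was found at 16.2%, against 6.91%, and the YY1 motif at 1.35%, against 4.49%. The median GC content of the upstream bases was 56.2% at the members' starts and 52.4% at all starts. The part of this difference in the motif shares was not tested. Sdha and Ndufb4 held 3 NRF1 motifs each and Cox6a1 held 2, and the other starts with this motif held 1. A match is a string of letters in this window and was not measured as binding.

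After DSS, 14 of the 81 genes fell in cKO_DSS relative to WT_DSS and none rose, at an adjusted p under 0.05. Over all 13255 genes tested, 3.7% were called in this comparison, 1.67% lower and 2.03% higher. The 14 were spread over complexes I (5 of 36 tested), III (1 of 9), IV (3 of 15) and V (5 of 17), with 0 of 4 in complex II. Fold changes are differences in log2(FPKM + 1) and adjusted p-values are from limma with Benjamini-Hochberg adjustment over all genes. The median log2 fold change over the 81 was -0.28, against -0.01 over all genes, and 69 lay below 0, where 51% of all genes did. At an unadjusted p under 0.05 there were 42 members, where 20.2% of all genes passed. The median stayed between -0.30 and -0.22 under all alternatives run, the scalings included.

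In complex I, Ndufa1, a small membrane subunit needed for assembly, had 91.9, 37.7, 45.4 and 44.4 FPKM in the cKO_DSS libraries, against 99.4, 112, 104 and 141 in the WT_DSS libraries (log2 fold change -1.12 ± 0.21 SE, adjusted p = 0.0139). The groups did not overlap, and cKO_DSS 1 stood close to the lowest WT_DSS library while the other 3 were far below. The core subunit Ndufv2 fell less but with a narrower spread. Ndufv2 had 65.5, 64.1, 59.9 and 57.7 FPKM in cKO_DSS, against 77.5, 80.6, 80.8 and 76.7 in WT_DSS (-0.35 ± 0.08 SE, adjusted p = 0.0272). All 4 of its cKO_DSS libraries were below all WT_DSS libraries. The accessory subunits Ndufa5 (-0.72 ± 0.19 SE, adjusted p = 0.0452) and Ndufa3 (-0.95 ± 0.25 SE, adjusted p = 0.0482) were also called. The core subunits Ndufs1, Ndufs7, Ndufs8 and Ndufv1 were not, at -0.28 for Ndufs1, -0.34 for Ndufs7, -0.28 for Ndufs8 and -0.22 for Ndufv1. With the GC correction Ndufs8 was called (-0.35, adjusted p = 0.0261), Ndufs7 and Ndufv1 were at -0.53 (adjusted p = 0.0516) and -0.35 (adjusted p = 0.159), and Ndufv2 was not called (-0.25, adjusted p = 0.0950).

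In complex III the Rieske protein Uqcrfs1 had 252, 214, 215 and 205 FPKM in cKO_DSS, against 291, 306, 265 and 314 in WT_DSS (-0.41 ± 0.10 SE, adjusted p = 0.0365), with no overlap. Cyc1, Uqcrc2 and Uqcrc1 were not called, at -0.06, -0.31 and -0.07. In complex II, Sdha, Sdhb, Sdhc and Sdhd were at -0.14, -0.26, -0.06 and -0.11, and none was called.

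In complex IV the small subunit Cox6c had the largest fall of the 14. It had 69.0, 16.9, 16.7 and 16.8 FPKM in the cKO_DSS libraries, against 68.0, 79.8, 74.7 and 88.6 in the WT_DSS libraries (-1.65 ± 0.34 SE, adjusted p = 0.0198). cKO_DSS 2, 3 and 4 were almost equal and cKO_DSS 1 lay among the WT_DSS values, so the groups overlapped. Cox7a2 had 225.4, 163, 135 and 131 FPKM in cKO_DSS, against 266, 266, 241 and 279.8 in WT_DSS (-0.71 ± 0.16 SE, adjusted p = 0.0291), and Cox7c had 251, 141, 119 and 108, against 265, 281, 226 and 406 (-0.97 ± 0.23 SE, adjusted p = 0.0324). Cox7a2 did not overlap and Cox7c overlapped through cKO_DSS 1. The 3 larger nuclear subunits Cox4i1, Cox5a and Cox5b were not called, at -0.01, -0.28 and -0.18.

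In complex V the 5 calls were 2 membrane subunits, 2 subunits of the peripheral stalk and the central stalk subunit gamma. Atp5mpl, a small membrane subunit, had 146, 55.8, 43.9 and 37.6 FPKM in cKO_DSS, against 138, 166, 130.1 and 216 in WT_DSS (-1.38 ± 0.32 SE, adjusted p = 0.0300). Atp5md, another, had 45.2, 22.2, 13.7 and 13.3, against 50.6, 53.4, 47.5 and 56.0 (-1.28 ± 0.28 SE, adjusted p = 0.0249). In both, cKO_DSS 1 was more than 2 times as high as every other library of its group, and the groups overlapped for Atp5mpl only. The stalk subunits moved less: Atp5j was at -0.54 ± 0.13 SE, adjusted p = 0.0325, Atp5pb at -0.26 ± 0.07 SE, adjusted p = 0.0408, and Atp5c1, the gamma subunit, at -0.42 ± 0.10 SE, adjusted p = 0.0284. With the GC correction Atp5pb was at -0.14 (adjusted p = 0.507), and the c-ring gene Atp5g2, at -0.12 without it, was called at -0.40 (adjusted p = 0.0185). The catalytic subunits Atp5b and Atp5a1 were at -0.27 and -0.02 and were not called.

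The groups did not overlap for 26 of the 81 genes, all lower in cKO_DSS, where 4.88% of all genes were apart in that direction and 5.12% in the other. The calls depended on single libraries. Within the group, cKO_DSS 1 was the highest library for 12 of the 14 genes. The count of members called was 25 without cKO_DSS 1, 0 without cKO_DSS 3 or without WT_DSS 2, 1 without cKO_DSS 4, 2 without WT_DSS 1 and 4 without WT_DSS 4, and none of the 14 was called in all 16 fits that left out a library. In these 6 fits 6.68, 0.807, 0.588, 1.24, 1.13 and 1.87% of all genes were called, in the order given. It was 0 without cKO_DSS 3 and 4 together and 0 when the 8 libraries were fitted alone, with median log2 fold changes within the range above; 0.249 and 0.724% of all genes were called there. The fibroblast markers given above were lower in every cKO_DSS library than in every WT_DSS library, and their part in these results was not tested.

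**Figure D3:**
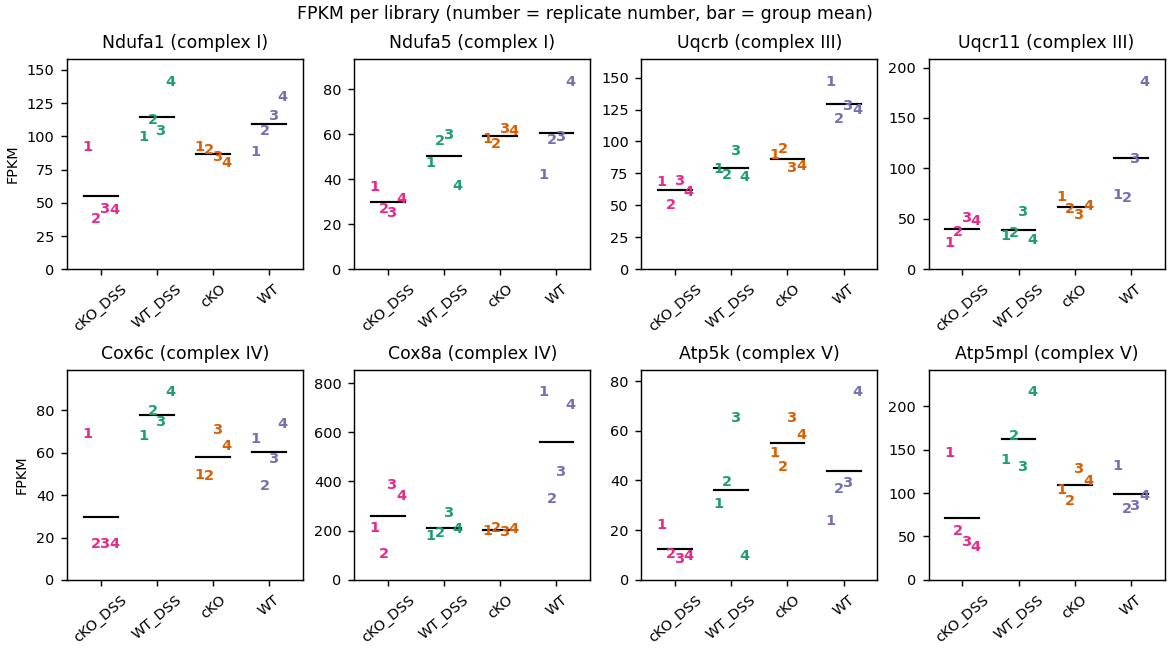
FPKM of 8 subunit genes in each library; numerals are replicate numbers and bars are group means. For Cox6c, Ndufa1, Atp5k and Atp5mpl, cKO_DSS 1 stands above cKO_DSS 2, 3 and 4, and for Uqcr11 and Cox8a the WT libraries spread widely, with WT 4 at 186 and 710 FPKM.

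On water, none of the 81 genes was called between cKO and WT with limma, where 0.0905% of all genes were (0.0377% lower and 0.0528% higher). At an unadjusted p under 0.05 there were 21 members (18.1% of all genes passed this), and limma voom on the recovered reads called 1, Uqcrb (0.211% of all genes were called there). The median log2 fold change was -0.18, against +0.01 over all genes, and 64 of 81 lay below 0, as did 48.7% of all genes. The groups were apart for 19 members, all lower in cKO, where 7.65% of all genes were apart in that direction and 7.85% in the other. The median stayed between -0.24 and -0.10 under all alternatives run.

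The member with the smallest p was Uqcrb, the ubiquinone-binding small subunit of complex III, with 89.5, 94.3, 79.4 and 80.7 FPKM in cKO and 147, 117, 128 and 125 in WT (-0.58 ± 0.12 SE, adjusted p = 0.0681). Cox8a, a small subunit of complex IV, had 200.4, 209, 195 and 208 FPKM in cKO and 763, 327, 439 and 709.6 in WT (-1.37 ± 0.34 SE, adjusted p = 0.124). The cKO libraries lay close together, while the WT libraries spread widely and lay wholly above them. Cox6a1 (-0.69 ± 0.19 SE, adjusted p = 0.126) and the complex I subunits Ndufb3 (-0.75 ± 0.19 SE, adjusted p = 0.124) and Ndufb6 (-0.50 ± 0.13 SE, adjusted p = 0.124) completed the 5 smallest p, and none of the 5 overlapped between groups. The larger complex IV subunits Cox4i1, Cox5a and Cox5b were at -0.51, -0.32 and -0.86, also without overlap. Among core subunits of the other complexes, values were -0.34 for Ndufv1, -0.30 for Sdha, -0.03 for Uqcrfs1, -0.19 for Atp5b and -0.26 for Atp5a1. Leaving out cKO_DSS 2, which belongs to neither group but enters the estimate of the spread, gave 3 calls. In that fit 0.837% of all genes were called, against 0.0905% with all libraries.

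With DSS in the WT genotype, 19 of the 81 genes fell and 3 rose, against 13.5% of all genes called lower and 15% called higher (28.5% in all). The median fold change over the members was -0.04, against -0.01 over all genes, and its sign depended on the setting (-0.11 to +0.05). Below 0 lay 46 members (50.6% of all genes), and 31 had an unadjusted p under 0.05 (41.2% of all genes). The groups were apart for 12 members that were lower and 4 that were higher in WT_DSS, against 12.8% and 15.5% of all genes. The falls lay in complex I (9 of 36), complex III (3 of 9), complex IV (5 of 15) and complex V (2 of 17), and the rises in complex I (2) and complex III (1). With a correction for gene length the split was 16 lower and 6 higher, and 27.2% of all genes were called.

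In complex III, the small subunit Uqcr11 had 33.4, 36.2, 56.4 and 28.7 FPKM in WT_DSS, against 73.3, 71.0, 109 and 186 in WT (-1.41 ± 0.29 SE, adjusted p = 0.00399). Uqcrb had 78.1, 73.4, 92.6 and 72.1 FPKM in WT_DSS, against 147, 117, 128 and 125 in WT (-0.70 ± 0.12 SE, adjusted p = 0.00124). The groups were apart for both, but the WT libraries were close to each other for Uqcrb and WT 4 was more than 2 times as high as WT 1 and 2 for Uqcr11. Uqcrq, another small subunit, fell with overlap (-0.73 ± 0.23 SE, adjusted p = 0.0290), and the core subunit Uqcrc2 rose, also with overlap through WT 1, to 154, 156, 141 and 177 FPKM in WT_DSS, against 153, 119, 129 and 116 in WT (+0.28 ± 0.10 SE, adjusted p = 0.0454).

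In complex IV, Cox8a had 179, 190.5, 269.9 and 208 FPKM in WT_DSS, against the WT values above (-1.33 ± 0.34 SE, adjusted p = 0.0113), and the groups did not overlap. Cox5b had 35.5, 43.6, 62.4 and 30.4 FPKM in WT_DSS, against 83.7, 68.5, 96.0 and 155 in WT (-1.20 ± 0.28 SE, adjusted p = 0.00754), again apart. Cox4i1 (-0.55 ± 0.15 SE, adjusted p = 0.0152), Cox6a1 (-0.54 ± 0.19 SE, adjusted p = 0.0427) and Cox5b-ps, listed as a pseudogene in its description and with the shortest gene length among the tested genes (-1.28 ± 0.37 SE, adjusted p = 0.0203), fell with overlap. In complex V the central stalk subunit Atp5d (-0.63 ± 0.19 SE, adjusted p = 0.0249) and the peripheral stalk subunit Atp5o (-0.51 ± 0.15 SE, adjusted p = 0.0229) fell. Of the exonic bases of Atp5o, 47.9% are shared with other genes on either strand, and the counting is not stated to use strand.

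The 9 complex I genes that fell were among the 30 accessory subunits tested, and 0 of the 6 core subunits tested were called. They were Ndufv3 (-0.91), Ndufb7 (-0.95), Ndufb6 (-0.52), the zinc-binding Ndufs6 (-1.09), Ndufa10 (-0.40), Ndufb3 (-0.65), Ndufa7 (-0.43), Ndufb10 (-0.69) and Ndufs5 (-0.65), at adjusted p between 0.00525 and 0.0443. Of the exonic bases of Ndufb6, 39.0% are shared with genes on the opposite strand, among them Smim27. Ndufs6 had 16.7, 19.3, 28.3 and 19.2 FPKM in WT_DSS, against 41.9, 29.9, 46.6 and 68.6 in WT. Ndufb2 and Ndufb5, which are among the 5 longest members, rose. Ndufb2 had 10.1, 10.3, 7.93 and 15.5 FPKM in WT_DSS, against 2.66, 5.34, 6.66 and 7.77 in WT (+0.89 ± 0.30 SE, adjusted p = 0.0379), and Ndufb5 was at +0.44 ± 0.13 SE, adjusted p = 0.0253, both without overlap. The core subunits Ndufs1, Ndufs7, Ndufs8, Ndufv1 and Ndufv2 were at +0.12, +0.14, -0.01, -0.05 and +0.10, and Sdha, Sdhb, Sdhc and Sdhd at -0.20, +0.33, +0.08 and +0.03.

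Of the 19 falls, 15 had WT 4 as the highest WT library. The count of calls was 12 without WT 4, 14 without WT 3, 10 without WT_DSS 1, 12 without WT_DSS 2 and 12 without WT_DSS 4, and 6 without WT 4 and WT_DSS 2 together. Of the 22 genes, 9 were called in all 16 fits that left out a library, among them Uqcrb, Uqcr11, Cox8a, Cox5b and Cox4i1. The GC correction ended 7 of the 22 calls: Cox4i1 was then at -0.24 (adjusted p = 0.136), Cox6a1 at -0.06 (0.839), Atp5d at -0.27 (0.141), Uqcrc2 at +0.12 (0.363), Ndufb10 at -0.52 (0.0742), Ndufb2 at +0.71 (0.104) and Ndufs5 at -0.66 (0.0526). It added the iron-sulfur subunits Sdhb at +0.47 (0.0398) and Ndufs7 at +0.51 (0.0241). With the Y-linked level as a covariate, 2 members were called, and the share over all genes was 6.51%, against 28.5% without it. That level was higher in every DSS library than in every library on water. The covariate thus takes up part of the DSS difference, and this fit cannot separate the Y-linked level from DSS. Of all genes, 18.4% were called without WT 4, 18.8% without WT 3, 16.9% without WT_DSS 1, 18.5% without WT_DSS 2, 19.3% without WT_DSS 4 and 11% without WT 4 and WT_DSS 2. The Y-linked, immune and fibroblast levels given above moved with DSS, and their part in these results was not tested beyond that covariate.

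In the cKO genotype, 9 of the 81 genes fell with DSS and none rose, against 6.64% of all genes called lower (8.07% higher, 14.7% called in all). The groups were apart for 15 members lower and 1 higher in cKO_DSS, against 8.97% and 10.1% of all genes. Below 0 lay 68 members (50.9% of all genes), and 25 had an unadjusted p under 0.05 (28.7% of all genes). The median was -0.21, against -0.01 over all genes, and between -0.25 and -0.09 under all alternatives run. Atp5k, subunit e of the ATP synthase, which joins its dimers, had 21.9, 10.4, 8.34 and 9.42 FPKM in cKO_DSS, against 50.9, 45.4, 65.0 and 58.4 in cKO (-2.14 ± 0.46 SE, adjusted p = 0.00681). Every cKO_DSS library lay below every cKO library. In WT_DSS the same gene had 30.7, 39.6, 65.3 and 9.50 FPKM.

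Ndufa5, an accessory subunit of the matrix arm, had 36.8, 26.8, 24.9 and 31.4 FPKM in cKO_DSS, against 57.8, 55.9, 62.3 and 61.7 in cKO (-0.98 ± 0.19 SE, adjusted p = 0.00323), and Ndufa3 had 16.6, 11.2, 8.501 and 6.85, against 22.7, 20.8, 25.0 and 27.6 (-1.15 ± 0.25 SE, adjusted p = 0.00715). Both were apart. Uqcrb had 68.5, 49.9, 68.7 and 60.7 FPKM in cKO_DSS, against 89.5, 94.3, 79.4 and 80.7 in cKO (-0.47 ± 0.12 SE, adjusted p = 0.0137). In this fit Uqcrb was the 1 member called lower with DSS in both genotypes. Cox6c (-1.22 ± 0.34 SE, adjusted p = 0.0276), Ndufa1 (-0.73 ± 0.21 SE, adjusted p = 0.0321), Atp5e, the epsilon subunit (-0.87 ± 0.24 SE, adjusted p = 0.0257), and Uqcrh, the hinge protein of complex III (-0.54 ± 0.16 SE, adjusted p = 0.0369), overlapped between the groups. Ndufs1 fell slightly without overlap (-0.26 ± 0.08 SE, adjusted p = 0.0482). The catalytic subunits Sdha, Sdhb, Cyc1 and Atp5b were at -0.04, +0.04, -0.04 and -0.05.

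This comparison shares the cKO_DSS libraries with the one between genotypes after DSS, and Ndufa1, Ndufa3, Ndufa5 and Cox6c were called in both. The count was 16 without cKO_DSS 1 and 4 without each of cKO_DSS 3, cKO_DSS 4, cKO 3 and cKO 4. Atp5k, Ndufa5, Ndufa3 and Uqcrb were called in all 16 fits that left out a library. Of all genes, 13.0% were called without cKO_DSS 1, and 12.1, 11.4, 10.4 and 9.85% without cKO_DSS 3, cKO_DSS 4, cKO 3 and cKO 4. With the Y-linked level as a covariate no member was called by limma, and 2.26% of all genes were. As in WT, this fit cannot separate the Y-linked level from DSS. With the GC correction Uqcrb was not called (-0.46, adjusted p = 0.0513). Ndufb7 (-0.59, adjusted p = 0.0389), Uqcr11 (-0.68, adjusted p = 0.0473) and Atp5g2 (-0.39, adjusted p = 0.00475) were called with it. Without it they were at -0.60, -0.64 and -0.36. Ndufb7 and Uqcr11 also kept their calls with DSS in WT under this correction, so the overlap between genotypes depended on the setting.

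The difference between the DSS responses of the 2 genotypes was called for 0 of the 81 genes with limma (0.151% of all genes were called, 0.0453% with a positive and 0.106% with a negative value), with 26 members at an unadjusted p under 0.05 (23.2% of all genes) and 0 calls by limma voom. The 5 smallest p belonged to Ndufb6 (+0.70 ± 0.19 SE, adjusted p = 0.0847), Ndufb3 (+0.97 ± 0.26 SE, adjusted p = 0.0909), Atp5md (-1.39 ± 0.39 SE, adjusted p = 0.0955), Atp5mpl (-1.54 ± 0.45 SE, adjusted p = 0.0989) and Cox6c (-1.59 ± 0.49 SE, adjusted p = 0.107). A positive value means that the change with DSS was more positive in cKO than in WT. Values below 0 were found for 45 members and for 51.2% of all genes. Without cKO_DSS 1 there were 11 calls, without cKO_DSS 2 there were 5, and without WT_DSS 3 there was 1. Of all genes, 2.96, 9.35 and 0.943% were called in these 3 fits. Across the 4 pairwise comparisons 40 genes were called at least once, 5 of them in a pair of comparisons, and 41 in none. The same counts were not made over all genes, so these have no background to be read against. In the single comparisons 3.7% (genotypes after DSS), 0.0905% (genotypes on water), 28.5% (DSS in WT) and 14.7% (DSS in cKO) of all genes were called.

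**Figure D4:**
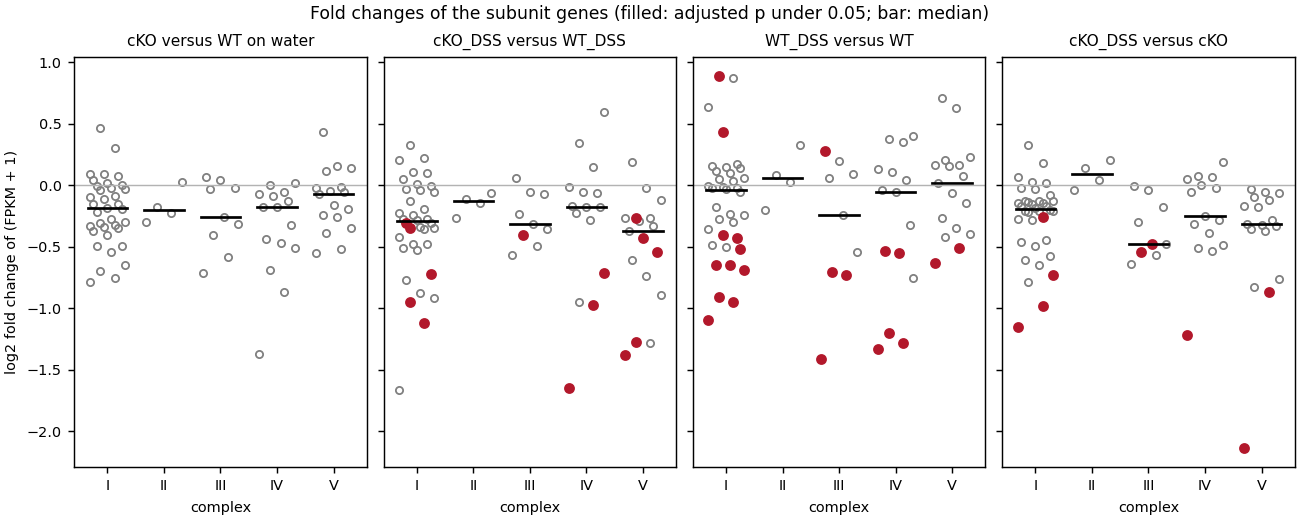
Log2 fold change of (FPKM + 1) of the 81 tested genes by complex, in 4 comparisons; filled points passed an adjusted p under 0.05 and bars are medians. There are 0, 14, 22 and 9 filled points from left to right, and none in complex II.

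The members did not move as a block within the libraries. WT 4 was the highest of the 16 libraries for 35 of the 81 genes and WT_DSS 4 for 27. The lowest library was cKO_DSS 2 for 29 genes, cKO_DSS 4 for 16, cKO_DSS 3 for 12 and WT_DSS 4 for 10. By gene length, the spread was widest for the 9 genes under 700 bases, whose median deviation from the mean of all libraries was +1.03 (log2) in WT 4 and -0.80, -0.53 and -0.58 in cKO_DSS 2, 3 and 4. For the 30 genes of 2000 bases or more, the same medians were +0.18, -0.32, -0.15 and -0.21. Over all genes tested, Spearman's rho between the deviation in a library and gene length was -0.34 in WT 4. It was +0.25, +0.03 and +0.02 in cKO_DSS 2, 3 and 4, so a trend with length in WT 4 and cKO_DSS 2 was not particular to the members. Over the 81 members, rho was -0.46 in WT 4 and +0.26, -0.03 and -0.03 in cKO_DSS 2, 3 and 4.

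With DSS in WT, 4 of 9 genes under 700 bases, 5 of 10 from 700 to below 1000, 7 of 32 from 1000 to below 2000 and 6 of 30 of 2000 or more were called, where the share over all genes of the same classes was 10.5, 17.4, 23.9 and 32.6%. The medians of these classes were -0.42, -0.43, -0.05 and +0.05, against -0.14, -0.15, -0.13 and +0.03 over all genes of the same classes. Between the genotypes after DSS, 1 of 9, 1 of 10, 6 of 32 and 6 of 30 were called in the same classes, where the share over all genes was 2.74, 3.83, 4.98 and 3.63%. The 5 longest genes Ndufs1, Ndufab1, Atp5l, Ndufb2 and Ndufb5 were at -0.28, -0.36, -0.37, -0.87 and -0.48 between genotypes after DSS, and of the tested genes the shortest, Cox5b-ps and Ndufa1, were at +0.59 and -1.12.

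GC content also went with the fold changes. Over the 81 genes, which share the same libraries and are not independent, Spearman's rho between fold change and GC content was +0.24 after DSS and -0.27 on water between genotypes, and -0.38 with DSS in WT and +0.03 with DSS in cKO. Over the 12867 tested genes with a GC value it was +0.38, -0.52, -0.53 and +0.05 in the same order. The 41 members with a GC content of 50.2% or more had a median of -0.24 with DSS in WT, and the other 40 had +0.07. With each library corrected for GC, 14 members were called between genotypes after DSS (12 of them shared with the 14 above), 17 with DSS in WT (15 shared) and 11 with DSS in cKO (8 shared). Of all genes, 4.04, 19.6 and 19.1% were called in these 3 comparisons with the correction.

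**Figure D5:**
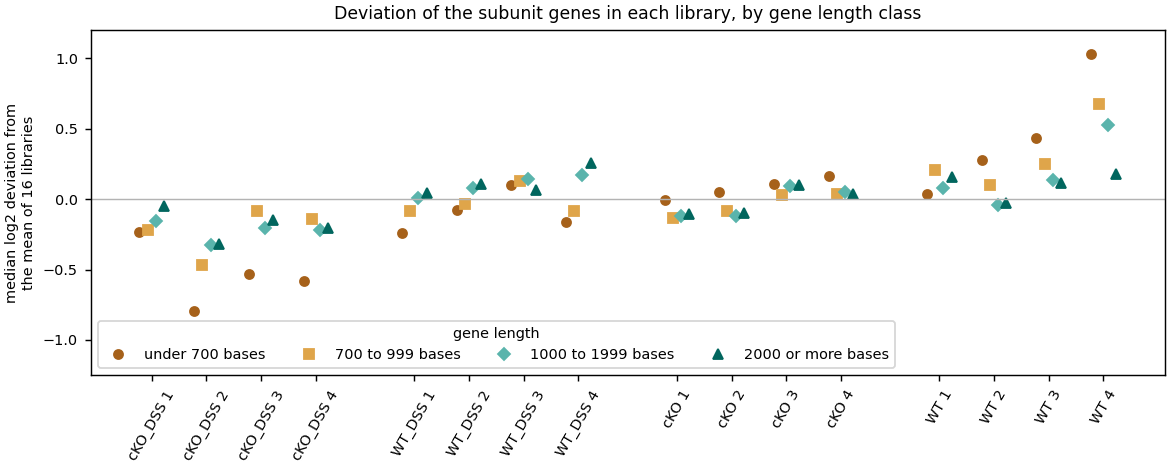
Median log2 deviation of the tested subunit genes from their mean over the 16 libraries, for 4 classes of gene length in each library. Genes under 700 bases reach +1.03 in WT 4 and -0.80 in cKO_DSS 2, while those of 2000 bases or more stay nearer to 0.

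Other genes of the pathway were described from lists of known members. The 13 subunits encoded in mitochondrial DNA had a median of -0.28 between genotypes after DSS and +0.27 on water, with 0 called by limma in either (1 and 0 of them at an unadjusted p under 0.05). With DSS, 7 of 13 fell in cKO (median -1.08) and 2 of 13 in WT (median -0.59), against 6.64 and 13.5% of all genes called lower. Those in cKO included mt-Cytb with -1.28 ± 0.27 SE, adjusted p = 0.00533 and mt-Nd1 with -1.11 ± 0.24 SE, adjusted p = 0.00646. Those in WT were mt-Nd4l with -1.26 ± 0.35 SE, adjusted p = 0.0163 and mt-Nd1 with -0.75 ± 0.24 SE, adjusted p = 0.0291. Below 0 lay 13 in cKO and 12 in WT, and 9 and 6 had an unadjusted p under 0.05 (28.7 and 41.2% of all genes). The difference between the DSS responses was called by limma for 0 of the 13, with 0 at an unadjusted p under 0.05 (0.151 and 23.2% of all genes). The share of reads from mitochondrial genes ran from 4.74 to 6.95% in cKO_DSS, 5.56 to 7.34% in WT_DSS, 7.67 to 15.1% in cKO and 7.66 to 11.3% in WT. Of 41 assembly factors, 0 were called by limma between genotypes after DSS and on water (8 and 9 at an unadjusted p under 0.05), 7 fell and 2 rose with DSS in WT, and 3 fell with DSS in cKO. The shares over all genes in these comparisons stand above, at 20.2 and 18.1% for the unadjusted counts and 28.5 and 14.7% for the calls with DSS in WT and in cKO. The counts of the assembly factors lie near or below them after DSS and with DSS. Below 0 lay 33 of the 41 between genotypes after DSS, 27 on water, 26 with DSS in WT and 31 with DSS in cKO. Their medians were -0.12, -0.05, -0.11 and -0.17, and 51, 48.7, 50.6 and 50.9% of all genes lay below 0. Ecsit, which helps to build complex I, fell in both (-0.50 ± 0.09 SE, adjusted p = 0.00237 in WT; -0.35 ± 0.09 SE, adjusted p = 0.0188 in cKO), and Uqcc3, a complex III factor, fell in WT (-1.01 ± 0.27 SE, adjusted p = 0.0149).

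Of 12 regulators, 0 were called by limma between genotypes after DSS and on water (1 and 2 at an unadjusted p under 0.05, where 20.2 and 18.1% of all genes passed). With DSS in WT the transcription factors Yy1 (+0.38 ± 0.08 SE, adjusted p = 0.00367) and Gabpa (+0.37 ± 0.12 SE, adjusted p = 0.0313) and the mitochondrial DNA packaging protein Tfam (+0.34 ± 0.11 SE, adjusted p = 0.0314) rose, while the nuclear receptor Esrra (-0.64 ± 0.17 SE, adjusted p = 0.0138) and the mitochondrial RNA polymerase Polrmt (-0.32 ± 0.09 SE, adjusted p = 0.0174) fell. With DSS in cKO only Yy1 of these 12 was called (+0.29 ± 0.08 SE, adjusted p = 0.0185). Of 18 import and inner membrane genes, 4 fell and 1 rose with DSS in WT and 1 fell in cKO. Of 12 genes of the tricarboxylic acid cycle, 2 fell and 1 rose in WT and 0 were called by limma in cKO (1 at an unadjusted p under 0.05). With DSS in WT, 41.7% of the regulators, 27.8% of the import genes and 25% of the cycle genes were called, against 28.5% of all genes. With DSS in cKO these shares were 8.33, 5.56 and 0%, against 14.7% of all genes. Sucla2, a subunit of succinyl-CoA synthetase, was the 1 gene of these lists called between genotypes after DSS (-0.33 ± 0.08 SE, adjusted p = 0.0429). Cycs, cytochrome c itself, averaged 32.5 FPKM in cKO_DSS, 38.6 in WT_DSS, 37.2 in cKO and 45.3 in WT and was not called by limma in any comparison. Its unadjusted p was under 0.05 in cKO_DSS versus WT_DSS, cKO versus WT and WT_DSS versus WT, and every cKO_DSS library was below every WT_DSS library.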

How the data were processed

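RNA-seq values of 16 libraries, 4 in each of 4 groups taken from the labels, were analysed. The values are FPKM deposited by the authors for 56268 genes; per the labels' protocols, they first discarded low-quality reads and those with adapter sequence or uncalled bases, and the submitters' processing notes name mm10, DESeq2 1.20.0 and featureCounts 1.5.0-p3. Aligner, annotation release and strand setting: not given in the sources used here. FPKM multiplied by gene length gave whole reads in each library (100% of values within 0.05 of a whole number). The 13255 genes that reached 1 FPKM in 4 or more libraries were analysed as log2(FPKM + 1), which understates the change of low genes, with limma 3.58.1 in R 4.3.3 (4 group means over 16 libraries, eBayes with a trend, two-sided), with Benjamini-Hochberg adjustment over all genes of a comparison; genes under an adjusted p of 0.05 were called. Code was tested on simulated data. GC content came from GENCODE M21 (GRCm38), and 99.0% of the deposited gene lengths equalled its exon unions. Members, lists and named genes (every called member, core subunits, isoform sets, extremes of level and length) were chosen with earlier results of these data known. Alternatives changed the pseudocount, filter, scaling, weights, test and libraries. The values of 1 member are not reported here, although counts and sums include it.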

Additional observations from a re-analysis of the deposited data

Results flagged for a closer look

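The 40 members called in any pairwise comparison and the summed FPKM of each complex were screened in each group of 4 libraries. In 7 of these 180 groups, 1 value stood apart from the other 3 by more than Dixon's critical share of the group's range. By chance about 1 in 20 groups is flagged. Of the 7, 5 concern cKO_DSS 1. In this library Ndufa1 had 91.9 FPKM, against 37.7 to 45.4 in the other cKO_DSS libraries, Ndufb2 had 10.9 (others 3.84 to 4.75), Cox6c had 69.0 (others 16.7 to 16.9), Atp5k had 21.9 (others 8.34 to 10.4) and Atp5mpl had 145.9 (others 37.6 to 55.8). In WT 4, Ndufs1 had 18.6 FPKM, below the 22.3 to 22.8 of the other WT libraries. In cKO 4, Atp5d had 195.3 FPKM, above the 179.7 to 181.0 of the other cKO libraries.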

How the results depend on the processing

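Counts of members called are given in the order cKO_DSS versus WT_DSS (14), cKO versus WT on water (0), WT_DSS versus WT (22), cKO_DSS versus cKO (9) and interaction (0). With no filter they were 4, 0, 11, 4 and 0, and with sample quality weights 40, 5, 31, 21 and 33. Of all genes, 0.687, 0.00657, 8.9, 4.8 and 0.0131% were called with no filter and 26.3, 2.01, 39.1, 23.1 and 28.1% with the weights. With the Y-linked level as a covariate, chosen after seeing the data, they were 12, 0, 2, 0 and 0. This covariate was higher in every DSS library than in every library on water and cannot be separated from DSS. Limma voom gave 20, 1, 23, 10 and 0. Of all genes, 3.35, 0.113, 6.51, 2.26 and 0.0528% were called with the covariate and 4.5, 0.211, 29.5, 15.2 and 0.551% with limma voom. Quantile normalization gave 14 for cKO_DSS versus cKO (13.8% of all genes). Without cKO_DSS 3 and 4 they were 0, 0, 25, 5 and 0 (0.249, 0.121, 31.9, 13.5 and 0% of all genes). Without WT 4 and WT_DSS 2 they were 1, 0, 6, 9 and 0 (0.883, 0.0604, 11, 14.8 and 0% of all genes). In the groups compared alone they were 0, 0, 17 and 7 (0.724, 0.0453, 25.1 and 10.5% of all genes). Leaving out 1 library at a time gave 0 to 25, 0 to 3, 10 to 27, 4 to 16 and 0 to 11. The cause of these shifts was not tested, except that fewer libraries enter the last 4 settings. Pseudocount, a filter at 5 FPKM, a shift of medians and corrections for gene length and GC content kept each count within 1.5 times. Whether the replicate numbers pair the libraries is not settled. Correlations of deviations between libraries of the same number ran from -0.20 to +0.30 and were over 0.1 in 6 of 24 pairs. Every library correlated best with its own number in 1 pair of groups, WT with cKO_DSS (+0.23, +0.17, +0.09 and +0.21). With the replicate block the counts were 9, 0, 19, 7 and 0 (3.24, 0.0151, 29.1, 14.3 and 0.0981% of all genes). With the block and a gene length correction they were 9, 0, 18, 7 and 0 (3.62, 0.0151, 26.9, 14.6 and 0.0754% of all genes). With the block and a GC correction they were 8, 0, 15, 9 and 0 (3.38, 0.0981, 19.5, 18.4 and 0.0302% of all genes). Each call of a member was followed under the alternatives, and the 5 smallest p in the comparisons without calls. Most of these values were called at the start and could not gain a call. Of the 1810 values, 1383 stayed on their side of the threshold in the same direction, 407 lost and 19 gained the call, and 1 turned. The value that turned was Cox6a1 with DSS in WT, at 0.0317 with the GC and gene length correction, against -0.54. The count tests edgeR and DESeq2 were not run on the recovered reads. Low genes rest on few reads, which limits the precision of Cox6b2 and Uqcrc1.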
